A study of Mus musculus with 2 samples.

Results

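The E2F family and the retinoblastoma pocket proteins were followed as 10 genes of NE4C cells, an established mouse neural stem cell line. The members were the activator E2F genes E2f1, E2f2 and E2f3, the repressor E2F genes E2f4, E2f5 and E2f6, the atypical E2f8, and the pocket protein genes Rb1, Rbl1 and Rbl2. They were chosen by symbol, and all 10 were among the 16803 genes of the expression table and among the 13442 genes tested (at least 10 reads in both libraries together). The cells grew attached to poly-L-lysine in Eagle medium, and total RNA was sequenced from a control, cultured normally, and from cells given HTL (homocysteine thiolactone), a cyclic, reactive form of homocysteine known to modify protein lysines. The labels give neither a dose nor a time for HTL. In the study's work on homocysteine modification, cells were starved of serum before HTL was added. Whether this was done for the cultures sequenced is not stated, so their serum history is not known. Both cultures came from the same line, with 1 library for each, so none of the differences has a replicate check.

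E2F proteins bind DNA with a DP partner near the start sites of genes for DNA replication and cell division. The pocket proteins RB, p107 and p130 (genes Rb1, Rbl1 and Rbl2) bind E2F proteins and hold their target genes down until cyclin-dependent kinases phosphorylate them in late G1. In neural stem and progenitor cells this switch sets when a cell commits to another round of division or leaves the cycle.

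Promoter sequences are shown first because several E2F and pocket protein genes are themselves known E2F targets. RefSeq promoter windows (GRCm38.p6, 250 bases before to 50 after a start site) were held for 7 of the 10 members, E2f1, E2f2, E2f3, E2f6, E2f8, Rbl1 and Rbl2. These were searched on both strands for 3 forms of the E2F site of 8 letters, TTTCGCGC, TTTGGCGC and TTTCCCGC, and 3 of the 7 genes held a match, each a single one that overlapped no other. Among all genes tested with a window, 431 of 10615 held a match (4.06%), and 606 of all 32851 windows did (1.85%). The windows of E2f2 (chr4:136172024-136172323, plus strand), E2f3 (chr13:29986014-29986313, minus strand) and Rbl1 (chr2:157204485-157204784, minus strand) are printed with the match in capitals. The window of E2f6 (chr12:16810715-16811014, plus strand), the member that rose, had no match and is printed beside them.
E2f2: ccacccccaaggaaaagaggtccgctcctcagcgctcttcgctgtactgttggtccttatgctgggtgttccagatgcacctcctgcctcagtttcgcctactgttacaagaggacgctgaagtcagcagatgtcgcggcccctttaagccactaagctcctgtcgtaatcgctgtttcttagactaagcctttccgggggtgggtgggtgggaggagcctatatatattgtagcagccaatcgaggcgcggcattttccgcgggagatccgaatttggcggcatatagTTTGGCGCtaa
E2f3: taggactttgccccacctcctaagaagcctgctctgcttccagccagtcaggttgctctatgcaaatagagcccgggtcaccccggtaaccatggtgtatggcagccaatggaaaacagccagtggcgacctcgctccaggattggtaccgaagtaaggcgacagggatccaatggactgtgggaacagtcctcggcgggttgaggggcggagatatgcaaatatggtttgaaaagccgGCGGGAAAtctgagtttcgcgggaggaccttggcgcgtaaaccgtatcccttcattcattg
Rbl1: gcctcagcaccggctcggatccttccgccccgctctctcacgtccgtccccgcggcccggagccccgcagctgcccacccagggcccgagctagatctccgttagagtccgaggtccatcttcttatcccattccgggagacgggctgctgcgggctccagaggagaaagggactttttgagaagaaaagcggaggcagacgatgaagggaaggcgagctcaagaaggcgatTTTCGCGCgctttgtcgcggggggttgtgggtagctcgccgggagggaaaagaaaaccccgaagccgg
E2f6: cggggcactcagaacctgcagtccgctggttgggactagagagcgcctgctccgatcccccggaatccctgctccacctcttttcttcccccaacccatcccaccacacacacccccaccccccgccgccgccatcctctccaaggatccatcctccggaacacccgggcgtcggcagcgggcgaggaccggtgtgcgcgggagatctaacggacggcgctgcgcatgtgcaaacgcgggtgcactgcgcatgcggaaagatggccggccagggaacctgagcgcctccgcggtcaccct
The E2f2 match began 40 bases after the start site. The E2f3 match, TTTCCCGC on the opposite strand and therefore printed as its reverse complement GCGGGAAA, began at 11 bases before the start site, and the Rbl1 match at 18 bases before it. The remaining E2f2 and E2f3 windows, and those of E2f1, E2f8 and Rbl2, did not hold these letters. For E2f1 the window lay wholly inside the annotated transcript E2f1-002 (300 of 300 bases), so it did not lie upstream of every annotated start. Bases upstream of the start of E2f1-002 were not searched, and the missing match in E2f1 says nothing about them. The window of E2f2 without a match opened with 46 bases of coding sequence of E2f2-001. The windows of E2f6, E2f8 and Rbl2 shared their last 50 bases with an annotated transcript of the gene and that of Rbl1 its last 28. The printed windows of E2f2 and E2f3 shared no run longer than 10 and 11 bases with one, so their RefSeq starts were not within the GENCODE transcripts compared. A match is a run of letters, and binding was not measured in the data used here. Among the genes tested, those with a match had a median log2 ratio of -0.18 (n = 431) and those without one -0.13 (n = 10184).

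**Figure D1:**
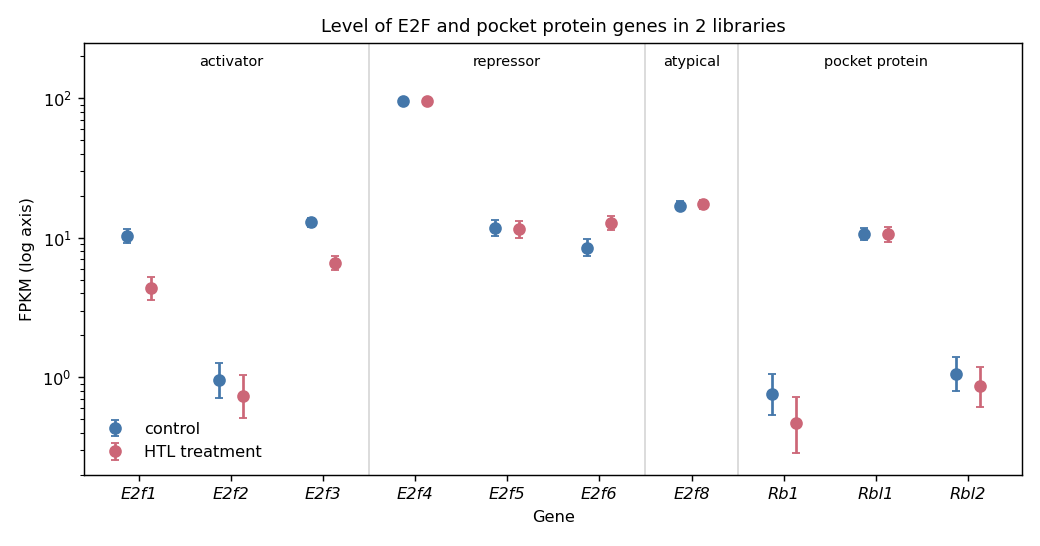
Level of each member in FPKM (log axis) in the control library (blue) and the HTL treatment library (red), grouped by role, with 1 library per condition and bars for the exact 95% Poisson interval of the reads. E2f4 stands far above the other members in both libraries, and the intervals of the 2 libraries do not overlap for E2f1, E2f3 and E2f6.

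E2f1 and E2f3 fell after HTL, E2f6 rose, and the other 7 members did not pass the test. Read counts were compared with the library totals by a two-sided exact binomial test with Benjamini-Hochberg adjustment over the 13442 genes, and a call needed an adjusted p no higher than 0.001 and a log2 ratio of 1 or more in size. By both criteria 1 member, E2f1, was called lower and none higher, beside 7.98% of all genes tested that were called lower and 2.81% called higher. By the adjusted p alone 2 members were lower and 1 was higher, beside 24.1% of all genes lower and 14.5% higher. The median log2 ratio of the 10 members was -0.25, and that of all genes tested was -0.14. With 2 of 10 members lower by the adjusted p, the family as a whole did not stand apart from this background. In edgeR's exact test with cultures assumed to vary by a coefficient of 0.1, E2f6 would not have passed (adjusted p = 0.06277), and at 0.2 neither would E2f1 (0.07975) or E2f3 (0.1824). Each test compares these 2 libraries, not the conditions, and tests and intervals cover counting error only. In bulk RNA, fewer cells of a type and less RNA per cell cannot be told apart.

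Among the activators, which recruit co-activators to replication genes at the end of G1, the 2 more abundant genes fell. E2f1 (gene ID 13555; chr2:154385143-154395628, minus strand, on NCBIM37 as for all gene positions here, another build than that of the promoter windows) had 293 reads and 10.4 FPKM in the control and 108 reads and 4.33 FPKM after HTL. Scaled to the library totals its level after HTL was 42.0% of the control, a log2 ratio of -1.25 (95% interval -1.59 to -0.93, exact Clopper-Pearson; adjusted p = 3.687e-15, exact binomial test). E2f1, a gene known both for driving S phase entry and for promoting cell death, was the member with the lowest ratio. E2f3 (gene ID 13557; chr13:29998444-30077537, minus strand) had 670 reads and 12.9 FPKM in the control library and 295 reads and 6.59 FPKM after HTL. Its log2 ratio was -0.997 (-1.20 to -0.80; adjusted p = 1.404e-23, exact binomial test), so it passed the adjusted p and lay just short of the fold cutoff of 1. E2f3 is transcribed from a pair of promoters into a longer and a shorter protein, and the table gives 1 value for the gene, so these forms were not separated. E2f2 (gene ID 242705; chr4:135728309-135751972, plus strand) had 49 and 33 reads, or 0.96 and 0.74 FPKM. Its log2 ratio was -0.38 with an interval from -1.07 to 0.28 (adjusted p = 0.3559, exact binomial test), an interval that holds both 0 and the ratio of E2f3.

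The repressors, which bind mainly in G0 and early G1, did not move as a group. E2f4, the main partner of p107 and p130, was by far the most abundant member, and with both libraries scaled to their totals its level differed by less than the counting error. E2f4 (gene ID 104394; chr8:107821563-107829269, plus strand) had 2010 and 1770 reads, or 96.0 FPKM in both libraries. Its log2 ratio was 0.00 with the narrowest interval of the members, -0.09 to 0.09 (adjusted p = 0.999, exact binomial test). This rested on the scaling: TMM (the trimmed mean of M values) and the median of ratios, which scale by the bulk of genes and not by the total, put E2f4 at 0.13 and 0.14, outside counting error, although neither passed the threshold (adjusted p = 0.01089 and 0.007439, exact binomial test). E2f5 (gene ID 13559; chr3:14578671-14606308, plus strand), a p130 partner known for its role in the choroid plexus, had 214 and 184 reads, or 11.8 and 11.5 FPKM, and a log2 ratio of -0.03 (-0.32 to 0.26; adjusted p = 0.8888, exact binomial test). E2f6 acts without pocket proteins, within a Polycomb-type complex that keeps germline genes silent in somatic cells. E2f6 (gene ID 50496; chr12:16817771-16833549, plus strand) had 218 reads and 8.51 FPKM in the control library and 286 reads and 12.8 FPKM after HTL. It rose to 149.1% of the control level, a log2 ratio of 0.58 (0.32 to 0.84; adjusted p = 2.988e-05, exact binomial test), short of the fold cutoff.

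E2f8, an atypical E2F that binds DNA without a DP partner and represses E2F targets in S and G2, was the next most abundant member after E2f4 by FPKM, while by reads E2f3 was slightly above it in the control. E2f8 (gene ID 108961; chr7:56121799-56136966, minus strand) had 657 and 590 reads, or 17.0 and 17.3 FPKM, a log2 ratio of 0.03 (-0.13 to 0.19; adjusted p = 0.784, exact binomial test). Its exons share 274 bases with the non-coding gene Gm2788 on the opposite strand. Its close relative E2f7, which was not among the members and was added after its values had been seen, had 321 and 235 reads, or 5.6 and 4.65 FPKM. The log2 ratio of E2f7 was -0.26 (-0.51 to -0.02; adjusted p = 0.05849, exact binomial test), so neither atypical gene passed.

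All 3 pocket protein genes had ratios below 0 and none passed the test. Rbl1, which encodes p107 and is itself most abundant in cycling cells, was the only pocket protein gene at more than a low level. Rbl1 (gene ID 19650; chr2:156971629-157030270, minus strand) had 364 and 269 reads. Its log2 ratio by reads was -0.25 (-0.48 to -0.02; adjusted p = 0.05523, exact binomial test). Its deposited FPKM were 10.6 in both libraries, a log2 FPKM ratio of -0.01, so reads and FPKM gave different answers for Rbl1 by 0.25 on the log2 scale. For the other 9 members the log2 ratios of reads and FPKM lay within 0.05 of each other. Rb1 (gene ID 19645; chr14:73583480-73725629, minus strand), the retinoblastoma gene itself, was the least abundant member, with 37 and 20 reads, or 0.76 and 0.47 FPKM. Its log2 ratio of -0.69 had an interval from -1.57 to 0.12 (adjusted p = 0.1325, exact binomial test). Rbl2 (gene ID 19651; chr8:93593956-93647743, plus strand), which encodes p130, the pocket protein of resting cells, had 53 and 39 reads, or 1.06 and 0.86 FPKM. Its log2 ratio was -0.25 (-0.89 to 0.37; adjusted p = 0.501, exact binomial test). For Rb1 and Rbl2, differences smaller than these intervals were not detectable at this depth.

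The reads of Rb1 and Rbl2 are uncertain for another reason. Exons of Rb1 share 408 bases with Lpar6, a receptor gene, and 488 bases with Rcbtb2, both on the opposite strand. Lpar6 had 72 reads in the control and 3 after HTL, while Rcbtb2 had 81 and 73. Exons of Rbl2 share 693 bases with Aktip on the opposite strand, which had 355 and 265 reads. Whether strand was used in counting is not given in the sources used here, so reads from such partners cannot be told apart from those of the members.

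**Figure D2:**
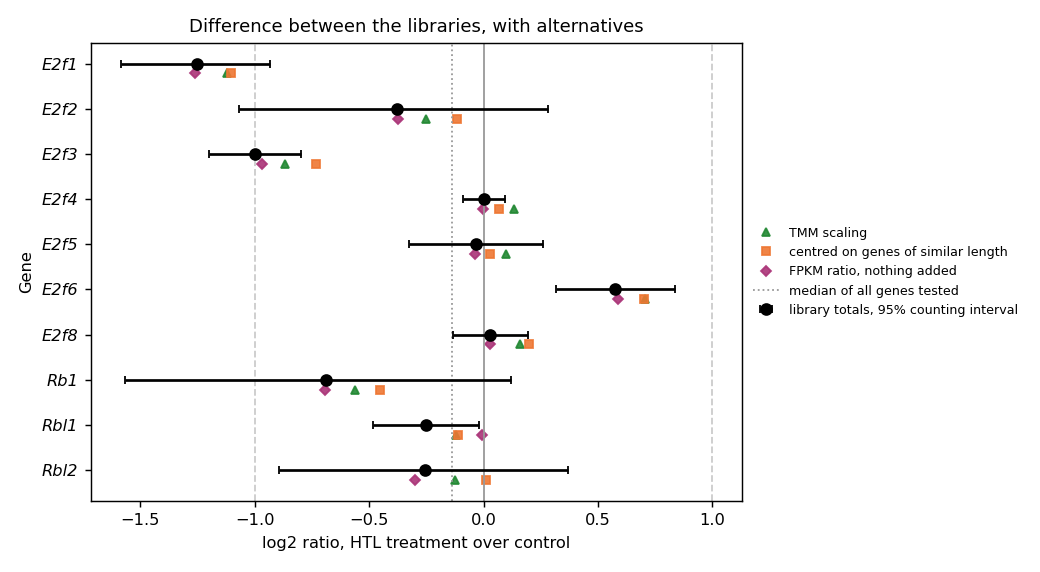
Log2 ratio of HTL treatment over control for each member, scaled to library totals with the exact 95% counting interval (black), and under TMM scaling, centring on genes of similar length and the plain FPKM ratio (coloured). E2f1 lies below -1 under each setting shown, E2f3 lies between -1 and -0.73, E2f6 lies between 0.58 and 0.71, and only Rbl1 has an FPKM ratio away from its read ratio.

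These ratios depend on how the libraries are scaled, because the median gene was itself 0.14 lower after HTL on the log2 scale. Relative to the median gene, the log2 ratio of E2f1 was -1.11, that of E2f3 -0.86 and that of E2f6 0.71. TMM scaling raised every ratio by 0.13, the median of ratios by 0.14 and the upper quartile by 0.09. Under these 3 scalings E2f1 remained called lower, with log2 ratios from -1.16 to -1.12, and E2f4 took values from 0.10 to 0.14. The 1072 lower and 378 higher calls over all genes became 800 and 552 under TMM scaling, and by the adjusted p alone 3240 lower and 1955 higher genes became 2485 and 2706. Longer transcripts had lower ratios across the table (Spearman rho = -0.18 over 13442 genes, a description across genes that share both libraries). Against the tenth of genes nearest in length, E2f1 was at -1.10, E2f6 at 0.70 and E2f3 at -0.73, as the neighbours of E2f3 in length had a median of -0.26.

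A comparison between members needs no library scaling, since both genes of a pair were read in the same 2 libraries. The trend with transcript length and the gap between reads and FPKM of Rbl1 do not cancel in this way. Centred on genes of similar length, for example, E2f3 was at -0.73 and E2f4 at 0.07. Over the 45 pairs, the exact 95% interval of the difference between log2 ratios excluded 0 for 21, and the interval widened for 45 pairs (Bonferroni) excluded 0 for 13. E2f1 and E2f3 did not differ beyond counting error, with a difference of -0.26 (-0.65 to 0.13). Each of these activators lay below E2f4, E2f5, E2f6, E2f8 and Rbl1 even with the widened intervals. The difference E2f1 minus E2f4 was -1.26 (widened interval -1.83 to -0.71), and E2f3 minus E2f4 was -0.9998 (-1.37 to -0.64). E2f6 lay above all 9 other members by the 95% interval and above 5 of them, E2f1, E2f3, E2f4, E2f8 and Rbl1, by the widened one. The widest gap was between E2f1 and E2f6, at -1.83 (widened interval -2.53 to -1.15), followed by E2f3 minus E2f6 at -1.57 (-2.12 to -1.03). Within the repressors, E2f4 minus E2f6 was -0.57 (widened interval -1.03 to -0.12), while E2f4 minus E2f5 was 0.03 (95% interval -0.27 to 0.34). The 3 pocket protein genes could not be told apart from each other. Rb1 minus Rbl1 was -0.45 (95% interval -1.35 to 0.41), Rb1 minus Rbl2 was -0.44 (-1.52 to 0.61), and Rbl1 minus Rbl2 was 0.01 (-0.66 to 0.69).

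**Figure D3:**
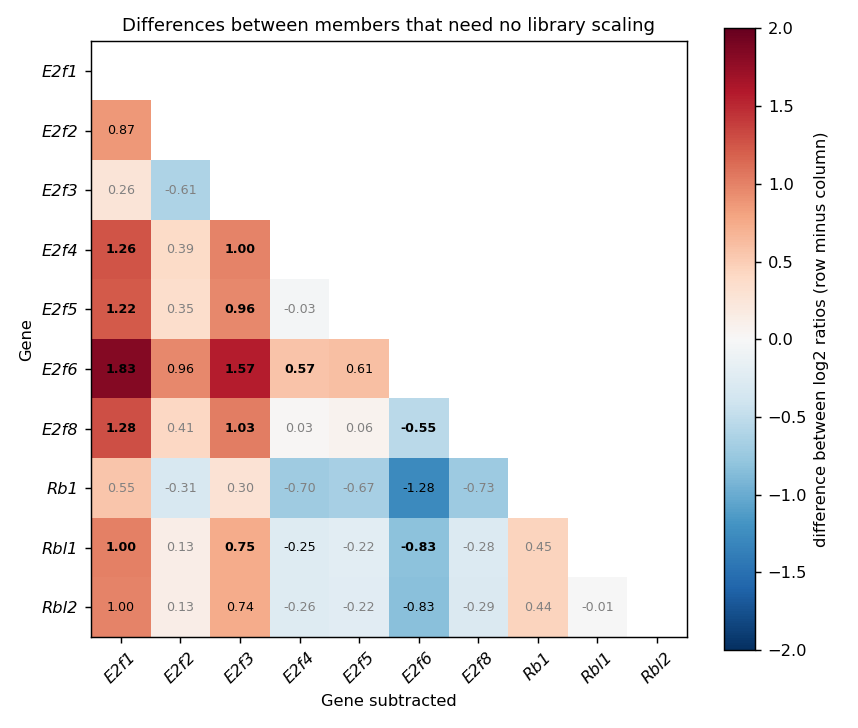
Difference between the log2 ratios of each pair of members, the gene of the row minus the gene of the column, with grey numbers where the exact 95% interval includes 0, black where it excludes 0 and bold where the interval widened over 45 pairs also does. The columns of E2f1 and E2f3 are mostly red, with E2f6 minus E2f1 the largest, and the differences among Rb1, Rbl1 and Rbl2 are grey.

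The order of the members by FPKM, a level per transcript length, was alike at its top and its foot in both libraries and differed in between. In the control library E2f4 led with 96.0 FPKM (91.9 to 100.3, exact Poisson interval of the reads), above 95.6% of all genes in the table. E2f8 followed at 17.0 (15.7 to 18.4). E2f3, E2f5, Rbl1, E2f1 and E2f6 came next, from 12.9 down to 8.51 FPKM, and each neighbour in that run overlapped the next within counting error. Rbl2, E2f2 and Rb1 stood at or near 1 FPKM, with overlapping intervals, and no member lay between 1.06 and 8.51 FPKM. After HTL, E2f4 and E2f8 kept ranks 1 and 2. E2f6 moved from rank 7 to rank 3, with 12.8 FPKM (11.3 to 14.3), and overlapped E2f5, which overlapped Rbl1. E2f3 moved from rank 3 to rank 6 and E2f1 from rank 6 to rank 7, and at 6.59 and 4.33 FPKM neither overlapped a neighbour. Rbl2, E2f2 and Rb1 again closed the order with overlapping intervals.

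Activators made up a smaller share of the E2F messages in the HTL treatment library, while the summed level of the repressors was close to that of the control. The 3 activators summed to 24.2 of 157.5 FPKM over the 7 E2F members in the control library, or 15.4%, and to 11.7 of 149.2 FPKM after HTL, or 7.82%. The 3 repressors summed to 116.3 and 120.2 FPKM, and E2f8 was at 17.0 and 17.3 FPKM. With a smaller total, the repressor share was 73.8% and 80.6% and that of E2f8 was 10.8% and 11.6%. By reads the activator share was 24.6% in the control library (1012 of 4111 reads, exact Clopper-Pearson 95% interval 23.3 to 26.0) and 13.4% after HTL (436 of 3266, 12.2 to 14.6). These intervals did not overlap. E2f1 held 7.13% and 3.31% of the reads, E2f3 16.3% and 9.03%, and E2f2 1.19% and 1.01%. Among the pocket protein messages Rbl1 made up 85.4% of 12.4 FPKM in the control library and 88.8% of 11.9 FPKM after HTL. By reads its share was 80.2% (364 of 454, 76.2 to 83.8) and 82.0% (269 of 328, 77.4 to 86.0), a difference within counting error.

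**Figure D4:**
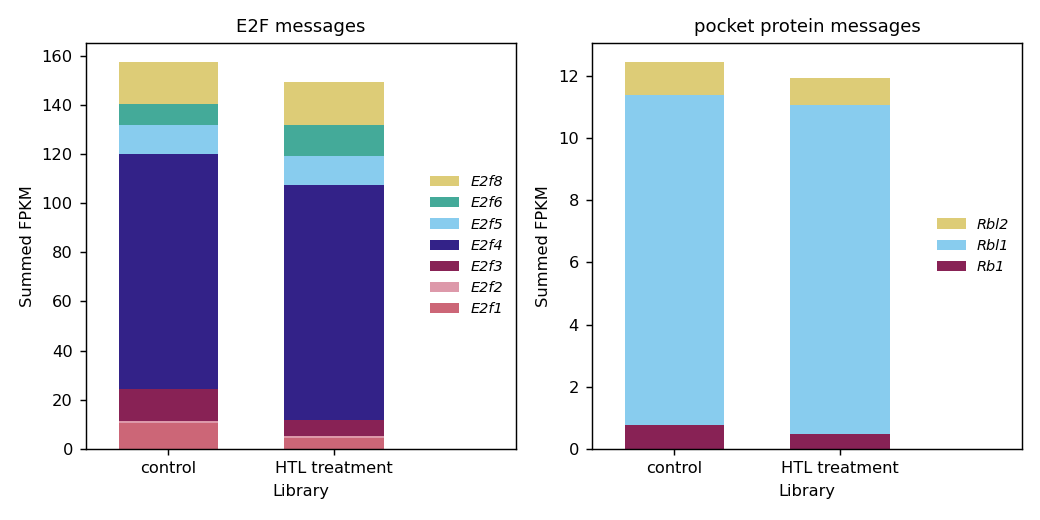
Summed FPKM of the 7 E2F members (left) and the 3 pocket protein members (right) in the control and HTL treatment libraries, stacked by gene from 0, with 1 library per bar. The activators at the foot of the left bars go from 24.2 to 11.7 FPKM while E2f4 stays at 96.0, and Rbl1 fills most of each bar on the right.

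The proteins that work with the E2F and pocket proteins were followed in 9 lists of 113 genes. Apart from the genes of the naming rule, those given by name here were chosen after their values were seen. Of the 104 tested, 7 were called, 5 lower (4.81%) and 2 higher (1.92%), both below the shares of all genes tested (7.98% and 2.81%). Under TMM scaling 3 were lower and 2 higher, and when centred on length 3 and 3. The counts by the adjusted p given for each list stand beside 24.1% of all genes lower and 14.5% higher. Both DP partners, which pair with E2f1 to E2f6 to bind DNA, fell by the adjusted p without reaching the fold cutoff. Tfdp1 went from 2285 to 1148 reads, with a log2 ratio of -0.81 (-0.91 to -0.70). Tfdp2 went from 1655 to 863 reads, with a log2 ratio of -0.75 (-0.87 to -0.63). Centred on genes of similar length, Tfdp1 was at -0.68 and Tfdp2 at -0.39, and both still passed the adjusted p.

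Of the 8 G1 cyclins and their kinases, 3 fell by the adjusted p and none rose. Which of them was higher by the adjusted p differed between the alternatives, since it was Ccnd3 under each of the 3 other scalings and Ccnd2 when centred on genes of similar length. Cdk6, a kinase that phosphorylates the pocket proteins with D-type cyclins, was called lower with 1855 and 496 reads, a log2 ratio of -1.72 (-1.86 to -1.57). Ccnd1 and Ccne2 fell with log2 ratios of -0.77 and -0.79. Cdk4, the other kinase of the D-type cyclins, was at 4144 and 3583 reads, and its log2 ratio was -0.02 (-0.09 to 0.04). Of 6 CDK inhibitors tested, Cdkn2d (p19, an inhibitor of Cdk4 and Cdk6) was called higher, from 52 to 122 reads, with a log2 ratio of 1.41 (0.94 to 1.91). The other 5 did not pass. Cdkn2c, with 7 and 2 reads, was below the filter.

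Among 7 genes of the MuvB core with B-Myb and FoxM1, which join E2F4 and p130 in resting cells or B-Myb in cycling cells, 1 fell and 1 rose by the adjusted p. When centred on genes of similar length, 1 was lower and 3 were higher, beside 17.1% and 20.3% of all genes. Lin9 fell with a log2 ratio of -0.61, and Rbbp4, the histone chaperone of the core, rose from 3223 to 3526 reads. The log2 ratio of Rbbp4 was 0.31 (0.25 to 0.38), or 0.53 when centred on length. All 8 genes of the RB-binding list passed the adjusted p, 6 lower and 2 higher, beside 24.1% and 14.5% of all genes, with a median log2 ratio of -0.49 (-0.36 under TMM and -0.25 when centred on length). Rbbp9, a serine hydrolase, was called lower (225 and 67 reads, log2 ratio -1.56), and so was Rbbp6, a ubiquitin ligase (1957 and 805 reads, log2 ratio -1.10). By TMM scaling 3 of the 8 were lower and 2 higher, beside 18.5% and 20.1% of all genes, and Rbbp6 was no longer called. Rbbp4 is in both of these lists.

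The partners of E2f6, the member that rose, split in direction. Of 13 genes of its complex, 5 fell and 6 rose by the adjusted p, beside 24.1% and 14.5% of all genes, and the median log2 ratio was 0.21. Ring1, a ubiquitin ligase of Polycomb complexes, was called lower with 66 and 23 reads, a log2 ratio of -1.32 (-2.09 to -0.63). Mga and Pcgf6, which define the E2F6 complex, fell with log2 ratios of -0.76 and -0.69, while L3mbtl2 rose with 0.21. Centred on length, Mga was at -0.39, Pcgf6 at -0.61 and L3mbtl2 at 0.40, and the median of the complex was 0.38 (0.34 under TMM). Rnf2, the paralog of Ring1, rose with a log2 ratio of 0.64, as did Hdac1 with 0.60 and Rybp with 0.53. Of 13 germline genes listed as silenced by E2F6, 7 were in the table and 5 were tested. Sycp1 (133 and 59 reads) and Tdrkh (611 and 380 reads) fell by the adjusted p. Both were already expressed in the control library, at 3.7 and 22.1 FPKM, so they were not silent there. Whether E2F6 acts on the listed genes in these cells was not tested. Tuba3a, a testis tubulin, had no read in the control and 47 reads after HTL, at least 17.8-fold higher when the control is set to the floor of 3 reads and the 47 reads are taken as they stand. The exact 95% interval of its log2 ratio, which covers the counting error of the 47 reads too, began at 3.80. It has near-identical copies between which reads can be split, so its count is uncertain. The median log2 ratio of these 5 genes was -0.03 with Tuba3a at its bound.

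The E2F target genes themselves moved in both directions. Of 38 replication genes switched on at G1/S, 14 fell and 8 rose by the adjusted p, beside 24.1% and 14.5% of all genes, and 16 did not pass. None was called, with log2 ratios from -0.83 for Tk1 to 0.84 for Cdc6. Centred on genes of similar length, Cdc6 was at 1.06 and was called higher. The genes of the replicative helicase differed among themselves. Mcm3 rose from 7118 to 7801 reads, a log2 ratio of 0.32 (0.27 to 0.36), and Mcm4, Mcm5 and Mcm6 rose with 0.36, 0.26 and 0.21. Mcm2 was at 0.09 and Mcm7 at -0.17, and these depended on the scaling. By TMM, Mcm2 was at 0.22 and passed the adjusted p, and Mcm7 was at -0.04 and did not, while centred on length Mcm2, Mcm5 and Mcm6 were at 0.25, 0.44 and 0.35 and Mcm7 at -0.03. The median of the 38 genes was -0.09, beside -0.14 for all genes tested, and TMM scaling put it at 0.04. By TMM 8 of the 38 fell and 13 rose, but the split over all genes turned as well, to 18.5% lower and 20.1% higher. Of the 31 with a promoter window, 13 held an E2F match (41.9%), beside 4.06% of all genes tested with a window. Among 20 genes expressed in G2 and mitosis, 10 fell and 3 rose by the adjusted p, beside 24.1% and 14.5% of all genes, with a median of -0.17. By TMM 8 of the 20 were lower and 6 higher, beside the same 18.5% and 20.1%, and the median was -0.04, as it was when centred on length. Cenpf, a kinetochore protein, was called lower with 4306 and 1779 reads, a log2 ratio of -1.09 (-1.17 to -1.01), which no longer reached the fold cutoff under any of the 3 other scalings.

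**Figure D5:**
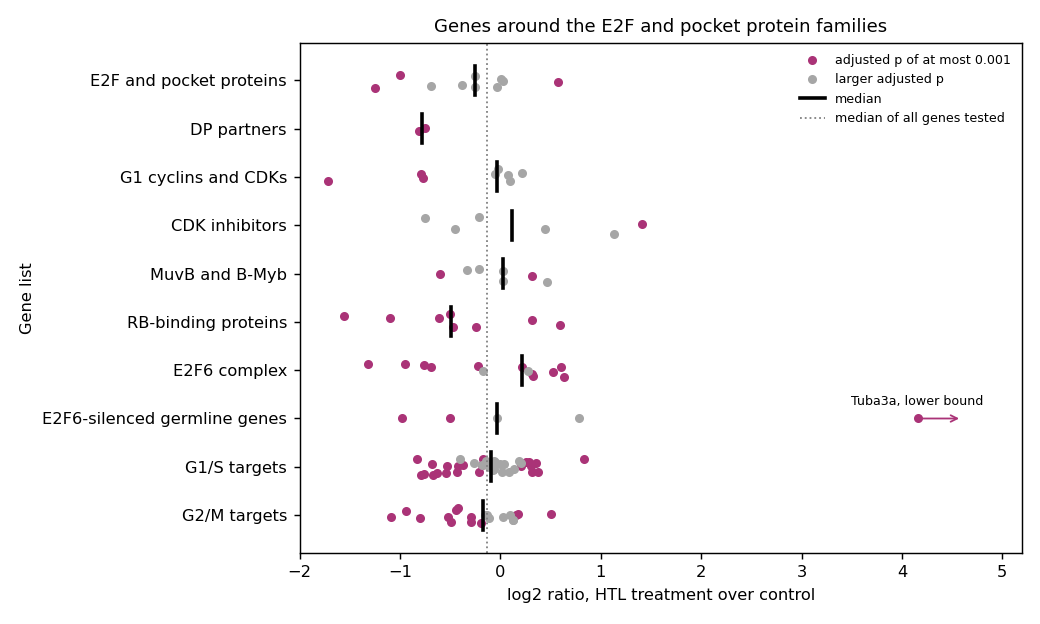
Log2 ratio of HTL treatment over control for the members (top) and for each gene tested in the 9 lists around them, 1 point per gene, coloured where the adjusted p was at most 0.001, with list medians as black bars. The list medians run from -0.78 for the DP partners to 0.21 for the E2F6 complex, the G1/S targets spread on both sides of the dotted median of all genes, and Tuba3a is drawn at its lower bound.

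The depth of the libraries was 10350665 reads for the control and 9102076 for HTL, with 622 and 1217 genes of the table at 0 reads. A count of 0 allowed up to 3 reads, or 0.29 and 0.33 CPM, and the least abundant member, Rb1, was above that with 20 reads. Of 8 neural stem cell markers 7 had over 10 reads in both libraries, and Fabp7 had 2 reads in each. Their summed level went from 537.6 CPM to 384.4 CPM after HTL, a difference that lay mainly in Sox2 (894 and 285 reads), Vim (1487 and 648) and Cdh2 (831 and 566). Sox1 was also lower, with 48 and 12 reads, but at 4.64 and 1.32 CPM it added little to the sum. The other markers of the list were near their control level, with log2 ratios of -0.06 for Nes, 0.03 for Msi1 and 0.12 for Pax6. Summed neuron markers were at 58.1 and 64.2 CPM, with members on both sides of 0, from Tubb3 at a log2 ratio of 0.60 to Map2 at -0.60 and Dcx at -1.40. The astrocyte, oligodendrocyte, microglia and fibroblast lists were each below 21 CPM in both libraries. Gfap had 2 and 0 reads, Aif1 3 and 0, and Mog 0 and 1. Aldh1l1, the other astrocyte marker in the table, was at 21 and 56 reads and took that sum from 2.22 to 6.15 CPM, and of the fibroblast markers Col1a1 and Col1a2 were each at 12 and 25 reads, Pdgfra at 45 and 27 and Dcn at 16 and 13. The part of these marker levels in the fall of E2f1 and E2f3 was not tested.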

How the data were processed

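RNA from 1 control and 1 HTL treatment culture of NE4C cells was sequenced, and the sample titles gave the groups. Mapping to the mouse genome and an RSEM estimate of the reads of each gene were done by the authors. The mapper, the versions and the use of strand are not given in the sources used here, and the submitters' processing notes name build mm9. The authors deposited estimated counts, not normalized, and FPKM, scaled by them to transcript length and library size and written as 0.01 where no read was counted. The deposited table also holds the authors' own log2 ratio, direction, p-value and FDR, which were not used. Deposited transcript lengths are in bases.

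Estimated counts were rounded to whole reads, and the 13442 genes that reached 10 reads over both libraries entered the test (3361 did not). Reads were compared with the library totals by a two-sided exact conditional binomial test (scipy 1.17.1, Python 3.11.15) with Benjamini-Hochberg adjustment. The cutoffs of 0.001 for the adjusted p and 1 for the size of the log2 ratio were taken from the study's methods. Before the log2, 0.5 read was added, scaled to the totals. In the text, "rose" and "fell" mean a passed adjusted p, and "called" means that the fold cutoff was met too. No molecular identifiers were read, so reads need not be separate molecules. Differences between members came from the exact conditional interval of the odds ratio. Without replicates, neither DESeq2 nor edgeR's quasi-likelihood test could be fitted. The alternatives used edgeR 4.0.16 and DESeq2 1.42.0 for scaling and for an assumed spread. The test was checked on simulated counts drawn with counting error alone, so this check does not cover spread between cultures.

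Gene positions are from GENCODE vM1 on NCBIM37, the assembly also called mm9. Promoter windows are from RefSeq on GRCm38.p6, and no coordinates were converted between them. Beside the 10 members and both DP partners, the genes named by rule were, from each other list, up to 2 called rises and 2 called falls, or, where none was called, the gene with the most reads. The members, the lists and the naming rule were chosen with earlier results of these data known.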

Additional observations from a re-analysis of the deposited data

How the results depend on the processing

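No paired analysis was possible because there was 1 library per condition, and no library could be left out. Most depended on the spread between cultures, which 2 libraries do not measure and which was therefore assumed (edgeR's exact test). At a coefficient of variation of 0.1, 1 member (E2f1) was still called, and E2f6 no longer passed the adjusted p (0.06277). With 0.2, 0 members, 1 gene of the lists and 120 of all genes were called, where E2f1 kept its log2 ratio of -1.25 with an adjusted p of 0.07975 and E2f3 had 0.1824. With 0.4, 0 members, 0 genes of the lists and 6 of all genes were called, and E2f1 had an adjusted p of 1.0. Of all genes, 816 were called by the ratio of FPKM + 1 and 2280 by the fold alone, beside 1450. E2f1 was called under every other alternative and E2f3 under none. The sign turned for 3 members that had not passed the test. E2f5 was at 0.10 under TMM and 0.10 under median of ratios scaling, 0.061 under upper quartile scaling and 0.027 when centred on genes of similar length. E2f4 was at -0.0010 by FPKM + 1 and -0.0011 by the FPKM ratio with nothing added, an alternative chosen after seeing the data, and Rbl2 was at 0.012 when centred on length. As a share of summed CPM instead of FPKM, activators were 24.6% in the control and 13.4% in the HTL treatment library, and Rbl1 80.2% and 82.0% of the pocket protein messages. The medians of the G1 cyclin and germline lists were above 0 under TMM (0.09 and 0.09). With 20 to 53 reads per library, Rb1, Rbl2 and E2f2 are limited by depth.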
